A study of Mus musculus with 7 samples.

Results

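Gene expression in medulloblastoma cells that received a CRISPR guide against Ofd1 (Ofd1 CRISPR, 3 libraries) was compared with that in cells that received a guide against GFP (GFP control, 2 libraries). These are 5 of the 7 libraries of the series, chosen by the guide in their labels, and all genes were examined. The submitters' design mentions 3 GFP replicates; the third was not analysed here. SMB21 is a mouse medulloblastoma cell line of Ptch mutant background (strain Ptch1tm1Mps/J, age given as adult), so every group, controls included, lacks normal restraint of the Hedgehog pathway. All cells received a lentiCRISPR vector, grew as neurospheres in B27-supplemented medium and were collected 2 weeks after infection. The labels name no GFP transgene in these cells, and the GFP guide serves as the control for the vector. The other 2 libraries, Kif3a CRISPR, differ in their labels only by the guide and entered the model to share the estimate of spread. Each library is labelled a biological replicate, but nothing says whether clones or pools were grown or whether cultures were infected separately, so p-values measure the spread between these samples, which may be partly technical. One line stands behind all libraries. Poly-A RNA was counted per gene, and the 5 libraries held 17961767 to 20690243 counts.

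OFD1 is a protein of the centriole's distal end and of centriolar satellites, and it is required to build the primary cilium. Granule neuron progenitors of the cerebellum, the cells from which this tumour type arises, need the cilium to relay Hedgehog signals, and a Ptch1-mutant tumour depends on a cilium in which Smoothened can act. As these progenitors leave the cell cycle they extend axons, migrate and switch on channels, receptors and adhesion molecules, which is why those gene families are described below.

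Ofd1 itself stood at 22.6 and 23.2 CPM in GFP control and 20.99, 20.03 and 22.00 CPM in Ofd1 CRISPR, and a lower transcript level was not detected (log2 fold change -0.12, SE 0.091, adjusted p = 0.398). The values of the 2 groups did not overlap. Indels made by Cas9 need not change transcript abundance, so the RNA is no check of editing. Of the 8 nearest tested protein-coding neighbours of Ofd1 on its chromosome, 4 on each side, 1 was called, Gpm6b, which stood at 444 and 476 CPM in GFP control and 331, 332 and 413 CPM in Ofd1 CRISPR (log2 fold change -0.36, SE 0.0943, adjusted p = 0.0258). The other 7 had adjusted p-values from 0.156 to 0.922. Over all tested genes 14.9% were called, so 1 call among 8 neighbours is near that share. All 20 markers of granule neuron progenitors and medulloblastoma were detected in every library, with a summed level of 3840 to 3890 CPM in GFP control and 4250 to 4970 CPM in Ofd1 CRISPR. Of these markers 9 were called higher and 3 lower, and 8 of the rises held. The markers called lower were Mycn, Gli2 and Gli1, a Hedgehog target, which stood at 427 and 477 CPM in GFP control and 167, 326 and 265 CPM in Ofd1 CRISPR; none of these 3 calls held.

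One control library held RNA that was scarce or absent in the others. In GFP control replicate 1, 74 genes had at least 10 counts while each of the other 6 libraries had at most 1; over the other libraries the same rule found 1 gene, in Ofd1 CRISPR replicate 2. The myeloid receptors Ccr2, Csf1r and Cxcr2, Ccr2 and Cxcr2 named after their values were seen, were among the 74, and none of the 74 passed the count filter. Of 33 myeloid markers in the table, 8 were at or under 3 counts in GFP control replicate 1, against 29 in GFP control replicate 2 and 19, 28 and 28 in Ofd1 CRISPR replicates 1, 2 and 3. The summed level of the list was 122 CPM in GFP control replicate 1 and 18.1 to 23.8 CPM in the other 4 libraries. Smaller amounts stood in Ofd1 CRISPR replicates 1 and 3: Cd74 had 571 and 3 counts in GFP control and 29, 1 and 10 in Ofd1 CRISPR. A gene with more than 1 count in another library, such as Cd74, is outside the 74. The myeloid transcripts are treated as foreign RNA. To find calls that they may have affected, genes called lower were searched for a level in GFP control replicate 1 at least 4 times that in replicate 2. The rule found 8, namely Chil3, Mmp12, Cd74, Ccl17, Vdr, Lgals3, Lsp1 and Mgl2. With GFP control replicate 1 left out edgeR called none of the 8. They are not described below but remain in the counts of calls, with Mmp12 among matrix genes, Ccl17 among secreted factors and Vdr among transcription factors. None of the 8 is a held call. Foreign RNA in calls under this ratio was not examined. The rule does not isolate foreign RNA either: Mgl2 stood at 3.26 CPM in GFP control replicate 2 and at 3.01, 2.39 and 2.88 CPM in Ofd1 CRISPR. Markers of endothelial cells and fibroblasts summed to at most 3.78 and 3 CPM in any of the 5 libraries. The oligodendrocyte list summed to 303 and 289 CPM in GFP control and 117, 172 and 201 CPM in Ofd1 CRISPR. Pdgfra, a receptor of that lineage, made up most of it, at 269 and 256 against 79.5, 140 and 168 CPM, while the defining markers Mog and Sox10 had no count. The ependymal list summed to 9.13 and 8.42 CPM in GFP control and 31.2, 17.2 and 17.4 CPM in Ofd1 CRISPR. Foxj1, the regulator of motile cilia, carried nearly all of it, and the ependymal markers Ccdc153 and Tmem212 had no count. Of 8 astrocyte markers, 2 were called higher and none held; Gfap, at 43.3 and 43.4 CPM in GFP control, varied several-fold within Ofd1 CRISPR, and Aqp4 had no count. The part of these markers in the results was not tested. In bulk RNA, fewer cells of a type and less RNA per cell cannot be told apart.

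In all, 874 genes (6.79% of 12875 tested) were called higher in Ofd1 CRISPR and 1041 (8.09%) lower, at an adjusted p under 0.05 by edgeR's quasi-likelihood test. Scaled by library totals alone, 1154 were higher and 852 lower. Because 2 control libraries carry the comparison, each call was repeated 7 times with 1 library left out. A call that stayed under 0.05 with the same sign in all 7 repeats is named a held call, and "rose" and "fell" are used below for held calls alone. There were 205 held rises (1.59%) and 269 held falls (2.09%), together 3.68% of tested genes against 14.9% called. The stricter rule favours large changes, and held calls had a median absolute log2 fold change of 0.87 against 0.47 over all calls. Dropping either control library lowered the number of calls over all tested genes too. The smaller counts given below for each class are therefore not particular to that class. Non-overlap of the groups is frequent at this size, and 49.6% of all tested genes show it, so it is no sign of a change on its own. Levels are CPM, counts scaled to a common library size with TMM factors, and log2 fold changes are Ofd1 CRISPR minus GFP control with their standard error (SE).

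**Figure D1:**
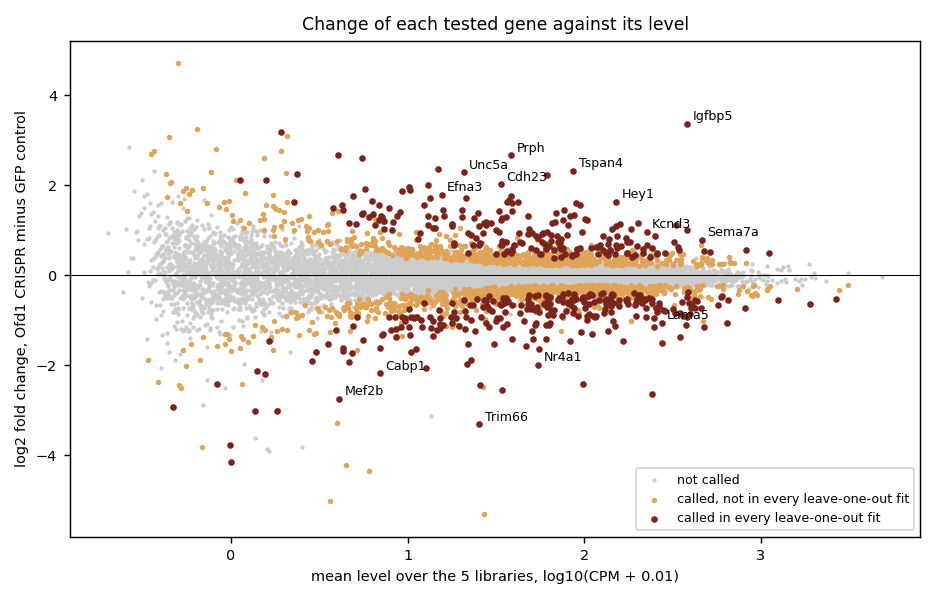
Log2 fold change (Ofd1 CRISPR minus GFP control) against mean level over the 5 libraries on a log10 scale, 1 point per tested gene. Dark points are the 474 held calls, orange points the other called genes, grey points the rest; Igfbp5 is the highest named point at 3.36 and Trim66 the lowest named one at -3.32.

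The 3 Ofd1 CRISPR libraries did not lie equally far from the controls. Replicate 1 was the farthest of the 3 in 188 of 205 held rises and in 223 of 269 held falls. Its median distance from the control mean, on a log2 scale with 0.1 CPM added, was 1.24 for the rises, against 0.81 and 0.80 in replicates 2 and 3. For the falls the distances were 1.00, 0.75 and 0.68. Igfbp5, a secreted binding protein for insulin-like growth factors with the largest held rise among genes of at least 2 CPM, shows the pattern, at 59.3 and 57.5 CPM in GFP control and 912, 441 and 447 CPM in Ofd1 CRISPR.

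A set of 87 gene families, defined by gene symbol and gathered in 12 classes, covered 2840 tested genes. A symbol pattern can take in a gene of another kind or miss a member, so each count is of the symbols matched. Axon guidance genes had the largest share of calls of the 12 classes, 37.1%, against 30.6% of matrix genes and 29.6% of secreted factors. The class of ribosomal, proteasome, splicing and other general families had the smallest, 7.26%. Guidance calls were mostly upward and cytoskeletal calls likewise, while more receptor and signalling genes were called lower than higher. The same lean was seen in secreted factors, transcription factors, transport and modifying enzymes and general families. It was also seen over all tested genes (1041 lower and 874 higher), where scaling by library totals alone reversed it. The median log2 fold change over all tested genes was 0.0028, so the family medians given below can be read against 0. Counts of calls given below can be read against 14.9% called and 3.68% held over all tested genes.

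**Figure D2:**
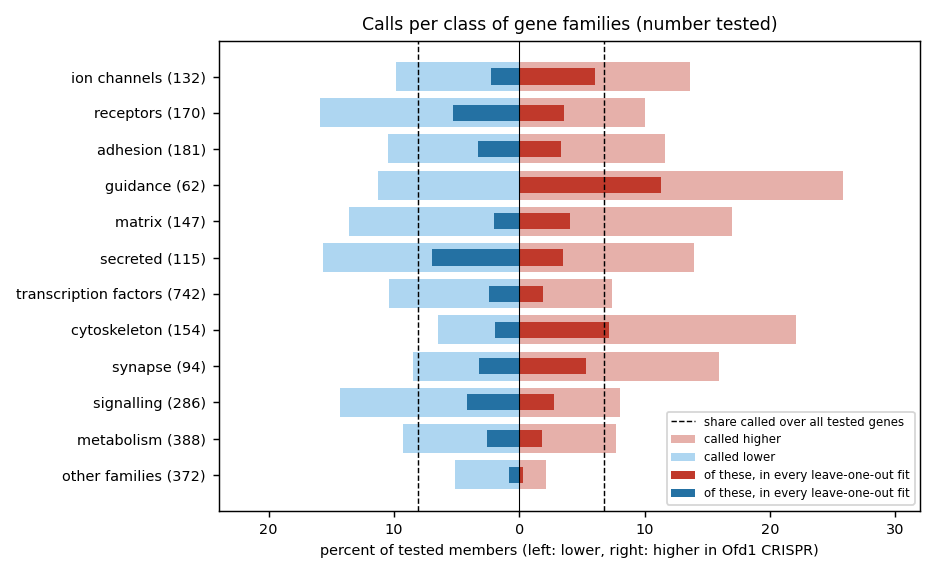
Percent of tested members called lower (left) and higher (right) in Ofd1 CRISPR for each class of gene families, with held calls as narrow dark bars; numbers tested are in brackets and dashed lines mark 8.09% and 6.79%, the shares over all tested genes. The guidance class reaches farthest to the right and has no held fall.

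Ion channels set the excitability of a neuron, and symbols of potassium channel genes were called higher more often than lower. Of 48 tested potassium channels 9 were called higher and 2 lower, and 4 and 1 of these calls held; the median over the family was -0.03. The symbols include accessory proteins and 2 noncoding RNAs, Kcnq1ot1, which was not called, and Kcnd3os, an opposite-strand transcript that was called higher without holding. Kcnd3, the A-type channel Kv4.3, stood at 144 and 145 CPM in GFP control and 344, 257 and 242 CPM in Ofd1 CRISPR (log2 fold change 0.96, SE 0.142, adjusted p = 0.00141). For Kcnq3, a subunit of the M-current channel, the levels were 3.29 and 3.26 CPM in GFP control and 10.1, 8.23 and 7.04 CPM in Ofd1 CRISPR (log2 fold change 1.37, SE 0.193, adjusted p = 0.00111), and for Kcnh5, the ether-a-go-go channel EAG2, 6 and 5.26 CPM in GFP control and 23.6, 11.2 and 15.3 CPM in Ofd1 CRISPR (log2 fold change 1.57, SE 0.261, adjusted p = 0.00255). In each of these every Ofd1 CRISPR library lay above both controls. Kcne1l, an accessory subunit, rose by 0.76 on the log2 scale.

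Among ligand-gated channels, nicotinic, serotonin and ATP-gated subunits were called most often. Of 11 tested nicotinic, serotonin and ATP-gated channels 5 were called higher and 2 lower, and 2 and 1 of these calls held. The nicotinic acetylcholine receptor subunits Chrna5 and Chrnb1 both rose by 1.05 on the log2 scale; Chrna5 stood at 9.19 and 7.82 CPM in GFP control and 19.7, 15.5 and 17.7 CPM in Ofd1 CRISPR (log2 fold change 1.05, SE 0.138, adjusted p = 0.000782). P2rx3, an ATP-gated channel of sensory neurons, was at 16.4 and 27.7 CPM in GFP control and 7.98, 8.35 and 9.51 CPM in Ofd1 CRISPR (log2 fold change -1.35, SE 0.186, adjusted p = 0.000962), and its controls differed from each other more than its Ofd1 CRISPR libraries did. Of 14 ionotropic glutamate receptor genes 1 rose, the kainate receptor Grik3, from near the floor of detection (0.491 and 0.15 CPM in GFP control and 4.98, 2.17 and 1.75 CPM in Ofd1 CRISPR). The chloride channel families gave 1 rise, Ano3 (log2 fold change 0.94), and 1 fall, Clic4 (log2 fold change -0.49). No sodium, calcium, HCN or TRP channel gene had a held call. Over all 132 channel genes 18 were called higher and 13 lower, a total of 31 (23.5% against 14.9% of all tested genes). Held calls made up 8.33%, against 3.68% of all tested genes. Dropping either GFP control library left 15, and dropping Ofd1 CRISPR replicate 3 gave 40.

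**Figure D3:**
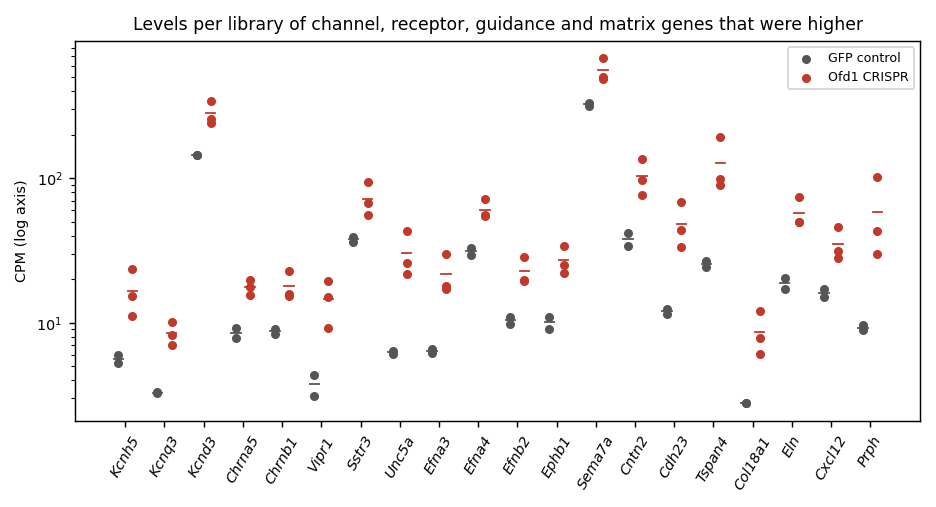
Level in each library (points, CPM on a log axis; bars are group means) of 20 genes of the channel, receptor, guidance, adhesion, matrix, secreted and filament families with held rises; grey is GFP control, n = 2, red is Ofd1 CRISPR, n = 3. Every red point lies above both grey points of its gene.

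Peptide hormone receptors had a held call in 7 of 17 tested members (41.2% against 3.68% of all tested genes). Of 17 tested peptide hormone receptors 6 were called higher and 4 lower, and 4 and 3 of these calls held. Vipr1, a receptor for vasoactive intestinal peptide, stood at 4.37 and 3.11 CPM in GFP control and 19.4, 15.02 and 9.15 CPM in Ofd1 CRISPR (log2 fold change 1.96, SE 0.328, adjusted p = 0.00272), and Sstr3, the somatostatin receptor known for its place in neuronal cilia, at 36.3 and 39.5 CPM in GFP control and 93.5, 56.1 and 66.9 CPM in Ofd1 CRISPR (log2 fold change 0.93, SE 0.176, adjusted p = 0.00521). Adcyap1r1, the receptor of the peptide PACAP, rose by 0.50 on the log2 scale, and the neurotensin receptor Ntsr1 by 0.72 on the log2 scale. Calcrl and Ramp2, which together form an adrenomedullin receptor, both fell. Of the related accessory proteins, Ramp3 was not called and Ramp1 was called lower without holding. Ramp1 and Ramp3 were named after their values were seen. The receptor Calcrl changed by -0.79 on the log2 scale, and its accessory protein Ramp2 stood at 41.04 and 45.8 CPM in GFP control and 17.6, 18.97 and 21.7 CPM in Ofd1 CRISPR (log2 fold change -1.16, SE 0.124, adjusted p = 0.00029). Tacr1, the substance P receptor, was at 21.5 and 23.05 CPM in GFP control and 6.75, 11.5 and 13.2 CPM in Ofd1 CRISPR (log2 fold change -1.09, SE 0.204, adjusted p = 0.00476). The histamine receptor Hrh3 rose by 1.44 on the log2 scale.

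Among receptor tyrosine kinases other than the Eph and Ror receptors, which were counted with other families, the calls were downward. Of 23 tested symbols none were called higher and 7 lower, and 2 of the falls held, with a median of -0.15. The symbols include Fgfr1op, Fgfr1op2 and Pdgfrl, which are not receptor kinases and were not called. Among the kinases counted elsewhere, Ror1 and Ephb6 were called higher, and Epha8 and Ephb3 lower, without holding. All of these were named after their values were seen. Ephb1 and Ephb2 rose. The fibroblast growth factor receptors Fgfr1 and Fgfr2 fell together: Fgfr1 stood at 279 and 289 CPM in GFP control and 188, 222 and 191 CPM in Ofd1 CRISPR (log2 fold change -0.50, SE 0.0853, adjusted p = 0.00292) and Fgfr2 at 102 and 110.2 CPM in GFP control and 70.97, 74.9 and 79.6 CPM in Ofd1 CRISPR (log2 fold change -0.50, SE 0.0736, adjusted p = 0.00137). Neither gene's groups overlapped. Of 15 tested receptor protein tyrosine phosphatases 1 was called higher and 5 lower, and none and 3 of these calls held, and the phosphatases Ptprf, Ptprj and Ptprm fell (log2 fold changes -0.55, -0.57 and -0.94). The adhesion receptor Bai2 fell (log2 fold change -0.81). No frizzled, TNF or TGF-beta family receptor had a held call. Receptor calls totalled 44 of 170 (25.9%); 23 were left when the first control library was dropped and 20 when the second was.

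Adhesion genes changed in both directions. Of 12 tested cadherins with Cdh symbols 2 were called higher and 2 lower, and 1 and 1 of these calls held. The 2 called higher, Cdh23 and Cdh13, are neither classical nor type II cadherins. Cdh13, whose call did not hold, was named after its values were seen. Cdh23, a cadherin of the tip links that join stereocilia, stood at 12.5 and 11.5 CPM in GFP control and 68.1, 44.01 and 33.6 CPM in Ofd1 CRISPR (log2 fold change 2.02, SE 0.262, adjusted p = 0.000765). Cdh22, in contrast, stood at 60.9 and 66.8 CPM in GFP control and 34.5, 42.5 and 45.6 CPM in Ofd1 CRISPR (log2 fold change -0.64, SE 0.121, adjusted p = 0.00511). The clustered and non-clustered protocadherins were near the background, with 7 of 44 called, and 1 of them, Pcdhac2, fell (log2 fold change -0.93). Cntn2, the axonal molecule TAG-1 that marks granule cells as they leave the cell cycle, was at 34.2 and 41.5 CPM in GFP control and 137, 96.6 and 76.7 CPM in Ofd1 CRISPR (log2 fold change 1.45, SE 0.197, adjusted p = 0.000914). In the same family Ncam1 fell (log2 fold change -0.74), and the weakly expressed contactin-associated gene Cntnap3 stood at 1.77 and 2.81 CPM in GFP control and 0.0493, 0.223 and 0.103 CPM in Ofd1 CRISPR, at or below what 3 counts give in each Ofd1 CRISPR library but replicate 2, so its fold change is not given. Nectin-1 (Pvrl1) and Islr2 fell (log2 fold changes -0.55 and -0.88).

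Tetraspanins are membrane proteins that organise receptors and integrins. Tspan4 stood at 26.9 and 24.2 CPM in GFP control and 193, 89.6 and 99.1 CPM in Ofd1 CRISPR (log2 fold change 2.32, SE 0.291, adjusted p = 0.000654), a rise of over 2 log2 units in a gene with no weak library. Tspan17 rose by 1.00, the laminin-binding integrin Itga7 by 0.95 and the leucine-rich repeat protein Lrrn2 by 0.49 on the log2 scale. No claudin, connexin or pannexin had a held call. Across the 181 adhesion genes 40 were called (22.1%), a number that came to 17 when either control library was dropped.

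Axon guidance genes gave held rises and no held fall: 7 of 62 rose (11.3% against 1.59% of all tested genes). Ephrins and their Eph receptors, which signal between touching cells, held 5 of these. Of 19 tested ephrins and Eph receptors 6 were called higher and 2 lower, and 5 and none of these calls held, with a median of 0.19. The ligand Efna3 stood at 6.54 and 6.16 CPM in GFP control and 29.96, 18.1 and 17.1 CPM in Ofd1 CRISPR (log2 fold change 1.78, SE 0.23, adjusted p = 0.000754). Efnb2 was at 10.9 and 9.87 CPM in GFP control and 28.4, 19.9 and 19.6 CPM in Ofd1 CRISPR (log2 fold change 1.13, SE 0.171, adjusted p = 0.00157), and its receptor class member Ephb1 at 10.96 and 9.12 CPM in GFP control and 34.2, 25.1 and 22.2 CPM in Ofd1 CRISPR (log2 fold change 1.44, SE 0.203, adjusted p = 0.00111). Ligands and receptors were thus both among the rises, with Ephb2 up by 0.46 on the log2 scale. The 2 members called lower, Epha8 and Ephb3, are receptors, and neither call held.

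Efna4, another ligand, stood at 33.02 and 29.6 CPM in GFP control and 72.3, 55.4 and 54.5 CPM in Ofd1 CRISPR (log2 fold change 0.96, SE 0.126, adjusted p = 0.000785). Efnb2 was named after its values were seen. Unc5a, a netrin receptor that mediates repulsion, had the largest rise of the class, at 6.34 and 6.11 CPM in GFP control and 43.2, 25.98 and 21.8 CPM in Ofd1 CRISPR (log2 fold change 2.29, SE 0.266, adjusted p = 0.0004), with the lowest Ofd1 CRISPR library more than 3 times the highest control. The membrane-anchored semaphorin Sema7a stood at 330.2 and 319 CPM in GFP control and 680.3, 489.7 and 504 CPM in Ofd1 CRISPR (log2 fold change 0.78, SE 0.123, adjusted p = 0.00199). Of 62 guidance genes 23 were called in all, and dropping the first or the second control library left 11 or 10.

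Matrix genes were called in 30.6% of 147 tested members, 25 higher and 20 lower, and 6 rose and 3 fell. Components of elastic fibres moved in opposite directions. Elastin (Eln) stood at 20.4 and 17.2 CPM in GFP control and 73.9, 49.9 and 49.8 CPM in Ofd1 CRISPR (log2 fold change 1.62, SE 0.174, adjusted p = 0.00029) and the fibre-associated protein Mfap4 at 18.8 and 16.5 CPM in GFP control and 68.1, 44.9 and 47.8 CPM in Ofd1 CRISPR (log2 fold change 1.60, SE 0.161, adjusted p = 0.000244), while Fbln5, which assists elastin assembly, was at 2.21 and 3.01 CPM in GFP control and 0.493, 0.779 and 0.514 CPM in Ofd1 CRISPR (log2 fold change -2.13, SE 0.308, adjusted p = 0.00123). All 3 had groups that did not overlap. Lama5, a chain of basement membrane laminins, was the one called gene of 8 laminins and stood at 367 and 431 CPM in GFP control and 148, 228 and 199 CPM in Ofd1 CRISPR (log2 fold change -1.06, SE 0.185, adjusted p = 0.00334).

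Col18a1, the collagen whose fragment is endostatin, was at 2.8 and 2.76 CPM in GFP control and 12.1, 6.12 and 7.81 CPM in Ofd1 CRISPR (log2 fold change 1.65, SE 0.276, adjusted p = 0.00275) and was the only held call of 24 collagens. The metalloproteinase inhibitors Timp2 and Timp3 rose by 1.29 and 1.30 on the log2 scale; no ADAM or matrix metalloproteinase gene had a held call. Of the proteoglycans that carry heparan sulfate, the glypican Gpc4 rose (log2 fold change 0.75) and the syndecan Sdc4 fell (log2 fold change -0.92). The 45 matrix calls came to 14 and 20 when the first or the second control library was dropped, and to 25 when Ofd1 CRISPR replicate 1 was.

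Secreted factors and carbonic anhydrases had 8 held falls and 4 held rises of 115 (10.4% against 3.68% of all tested genes). Of the rises 1, Car3, is a cytosolic enzyme. The growth factors Pdgfa and Tgfa fell: Pdgfa stood at 19.6 and 17.4 CPM in GFP control and 9.27, 9.57 and 10.5 CPM in Ofd1 CRISPR (log2 fold change -0.92, SE 0.133, adjusted p = 0.00125) and Tgfa at 38.1 and 37.8 CPM in GFP control and 19.6, 22.3 and 25.8 CPM in Ofd1 CRISPR (log2 fold change -0.75, SE 0.129, adjusted p = 0.00301). Vegfa, the vascular growth factor and a hypoxia-induced gene, fell (log2 fold change -1.16). The neurexin ligand Nxph3 was at 26.2 and 25.7 CPM in GFP control and 10.8, 13.2 and 13.1 CPM in Ofd1 CRISPR (log2 fold change -1.07, SE 0.135, adjusted p = 0.000654), and the stanniocalcin Stc2 at 17.2 and 18.9 CPM in GFP control and 5.17, 5.95 and 5.4 CPM in Ofd1 CRISPR (log2 fold change -1.71, SE 0.156, adjusted p = 0.000208). The family of neuropeptides and granins had the lowest median of the class, -0.61 over 15 tested genes, with 5 called lower and 1 higher.

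The class also counts carbonic anhydrases, most of which are not secreted. Cxcl12, the chemokine that holds granule progenitors at the cerebellar surface, stood at 17.2 and 15.1 CPM in GFP control and 45.9, 31.3 and 28.2 CPM in Ofd1 CRISPR (log2 fold change 1.12, SE 0.189, adjusted p = 0.0028). Tgfb3 was at 15.2 and 13.3 CPM in GFP control and 33.7, 24.4 and 23.6 CPM in Ofd1 CRISPR (log2 fold change 0.93, SE 0.151, adjusted p = 0.00229). Car3, the cytosolic carbonic anhydrase, rose by 1.38 on the log2 scale. No Wnt ligand had a held call, and of 17 secreted Wnt and BMP antagonists only Wif1 did, a fall (log2 fold change -1.43). Secreted calls numbered 34, and 15 after dropping either one of the control libraries or 22 after dropping Ofd1 CRISPR replicate 1.

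Transcription factor families differed in direction. Among 78 homeobox genes outside the Hox clusters 12 were called higher and 10 lower, yet the 5 held calls were all rises. Besides Pax6 and Meis1 these were Otx2, a head-patterning factor, at 64.9 and 61.1 CPM in GFP control and 95.9, 82.7 and 85.02 CPM in Ofd1 CRISPR (log2 fold change 0.48, SE 0.082, adjusted p = 0.00301), Barhl1, a marker of the granule lineage, at 637 and 639 CPM in GFP control and 1109.6, 909.8 and 831 CPM in Ofd1 CRISPR (log2 fold change 0.57, SE 0.103, adjusted p = 0.00387) and its paralogue Barhl2 at 24.5 and 25.9 CPM in GFP control and 46.1, 38.6 and 35.5 CPM in Ofd1 CRISPR (log2 fold change 0.67, SE 0.107, adjusted p = 0.0022). Of 50 tested basic helix-loop-helix factors 10 were called higher and 4 lower, and 5 and none of these calls held. The neuronal differentiation factor Neurod2 stood at 1.87 and 2.15 CPM in GFP control and 9.81, 5.29 and 5.29 CPM in Ofd1 CRISPR (log2 fold change 1.76, SE 0.293, adjusted p = 0.0026), Bhlhe22 at 165 and 163 CPM in GFP control and 273, 236 and 231 CPM in Ofd1 CRISPR (log2 fold change 0.59, SE 0.0845, adjusted p = 0.0012), and Hey1, Mycl and Atoh1 rose by 1.63, 0.51 and 0.53 on the log2 scale. Mycl was named after its values were seen.

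The Sox factors that were called were all lower. Of 12 tested Sox factors none were called higher and 7 lower, and none and 3 of these calls held, and their median was -0.43. Sox1 and Sox2, of the SoxB1 group that maintains neural progenitors, both fell. Sox1 stood at 219 and 221 CPM in GFP control and 126, 160.2 and 151 CPM in Ofd1 CRISPR (log2 fold change -0.59, SE 0.104, adjusted p = 0.00336), Sox2 at 56.2 and 57.2 CPM in GFP control and 34.6, 35.4 and 36.9 CPM in Ofd1 CRISPR (log2 fold change -0.67, SE 0.0762, adjusted p = 0.000361) and Sox9, of the SoxE group, at 224 and 232 CPM in GFP control and 126, 156 and 153 CPM in Ofd1 CRISPR (log2 fold change -0.65, SE 0.0911, adjusted p = 0.00105). In each the lowest control lay above the highest Ofd1 CRISPR library. Forkhead factors leaned the same way, with 8 called lower and 1 higher of 26, of which Foxo6 fell (log2 fold change -1.06) and Foxj1 rose (log2 fold change 1.45).

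Factors with a basic leucine zipper, apart from Atf4 stress factors, were called lower more often than higher. Of 34 tested bZIP factors other than Atf4 stress factors 2 were called higher and 9 lower, and none and 6 of these calls held. Jdp2, a factor of this kind that the symbol patterns left out, also fell (log2 fold change -1.20). Cebpb, an early response factor, stood at 35.2 and 37.4 CPM in GFP control and 12.7, 11.7 and 13.2 CPM in Ofd1 CRISPR (log2 fold change -1.53, SE 0.124, adjusted p = 0.000125), and Maff, a small Maf protein, at 20.4 and 16.8 CPM in GFP control and 4.58, 6.29 and 7.14 CPM in Ofd1 CRISPR (log2 fold change -1.64, SE 0.214, adjusted p = 0.000776). The related Cebpg fell (log2 fold change -0.55), as did the endoplasmic reticulum sensor Atf6 (log2 fold change -0.41). Nuclear receptors included 3 held falls of 32: the early response receptors Nr4a1 and Nr4a3, of which Nr4a3 stood at 6.68 and 7.87 CPM in GFP control and 1.77, 2.28 and 2.72 CPM in Ofd1 CRISPR (log2 fold change -1.69, SE 0.201, adjusted p = 0.000451), and the thyroid hormone receptor Thra (log2 fold change -0.45). Mef2b, a MADS-box factor, was at 7.57 and 9.07 CPM in GFP control and 0.887, 1.28 and 1.54 CPM in Ofd1 CRISPR (log2 fold change -2.75, SE 0.225, adjusted p = 0.000125).

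Of the remaining factors, Runx2 stood at 11.5 and 12.9 CPM in GFP control and 3.65, 6.18 and 6.07 CPM in Ofd1 CRISPR (log2 fold change -1.21, SE 0.196, adjusted p = 0.00229) and Tbx1 fell (log2 fold change -0.82), while Glis1, a zinc finger factor related to Gli proteins, stood at 5.11 and 4.16 CPM in GFP control and 15.2, 8.85 and 10.4 CPM in Ofd1 CRISPR (log2 fold change 1.31, SE 0.228, adjusted p = 0.00328). Zbtb16, the PLZF repressor, fell (log2 fold change -1.19) and Plagl1 rose by 0.60 on the log2 scale. The 321 numbered zinc finger proteins had 15 calls upward and 2 downward, 5.30% against 14.9% of all genes, and no held call. Over all 742 transcription factors 132 were called (17.8%); dropping the first or the second control library left 41 or 44.

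**Figure D4:**
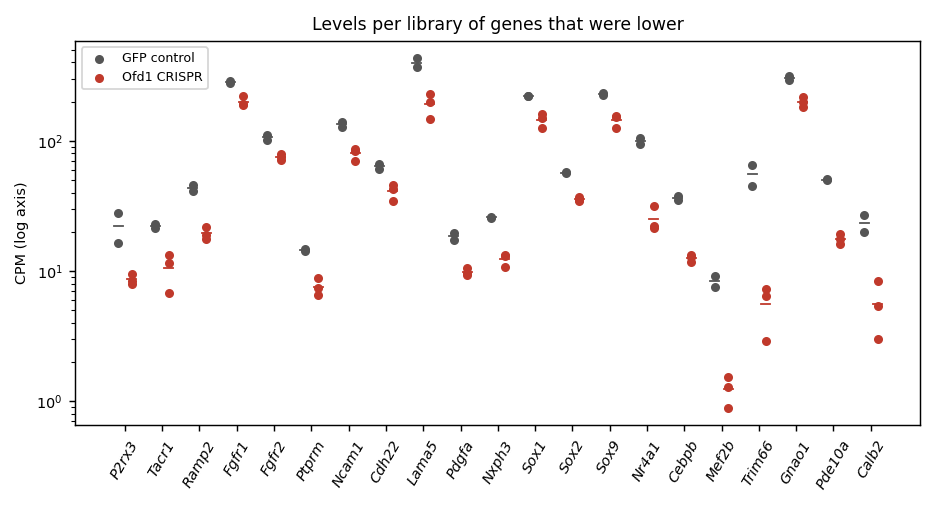
Level in each library (points, CPM on a log axis; bars are group means) of 21 genes with held falls; grey is GFP control, n = 2, red is Ofd1 CRISPR, n = 3. Every red point lies below both grey points of its gene, and Trim66 and Mef2b are the farthest apart.

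Calls among cytoskeletal genes were mostly upward: 34 of 154 were called higher and 10 lower, and 11 rose and 3 fell. The neuronal intermediate filaments Prph and Nefl stood out in their family. Prph, peripherin, was at 8.85 and 9.67 CPM in GFP control and 102, 29.7 and 43.1 CPM in Ofd1 CRISPR (log2 fold change 2.66, SE 0.438, adjusted p = 0.00251), with replicate 1 far above the other Ofd1 CRISPR libraries, and Nefl, the light neurofilament chain, at 4.13 and 3.51 CPM in GFP control and 10.3, 9.85 and 8.12 CPM in Ofd1 CRISPR (log2 fold change 1.30, SE 0.177, adjusted p = 0.000914). The microtubule genes Dclk3 and Tubb2b rose by 1.72 and 0.58 on the log2 scale, while Dclk1, of the same doublecortin-like kinase family, stood at 249 and 246 CPM in GFP control and 126, 170.4 and 186 CPM in Ofd1 CRISPR (log2 fold change -0.62, SE 0.122, adjusted p = 0.00634). Myosin genes gave 3 rises of 26 and no held fall. Myl9, a regulatory light chain, was at 36.5 and 38.5 CPM in GFP control and 88.9, 54.3 and 68.3 CPM in Ofd1 CRISPR, and Myh8 and Myh11, heavy chains of skeletal and smooth muscle, were at low levels (3.93 and 3.31 CPM in GFP control and 14.6, 14.9 and 9.92 CPM in Ofd1 CRISPR for Myh8).

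Calponins diverged. Cnn1, a smooth muscle calponin, stood at 44.5 and 34.2 CPM in GFP control and 9.02, 7.51 and 13.6 CPM in Ofd1 CRISPR (log2 fold change -1.97, SE 0.212, adjusted p = 0.00029), and Tagln3, its neuronal relative, at 19.6 and 17.7 CPM in GFP control and 34.7, 28.99 and 27.8 CPM in Ofd1 CRISPR (log2 fold change 0.71, SE 0.11, adjusted p = 0.0018). Filamin A (Flna) rose by 0.49 on the log2 scale. Of 41 kinesins, Kifc3 alone had a held call, a fall (log2 fold change -0.99); Kif3a itself was not called in Ofd1 CRISPR (log2 fold change -0.15, SE 0.0836, adjusted p = 0.249). The 44 cytoskeletal calls (28.6%) came to 21 or 17 with the first or the second control library dropped.

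Synaptic genes were called in 24.5% of 94 tested members, against 14.9% of all tested genes. The vesicle protein Syn2 stood at 53.2 and 51.5 CPM in GFP control and 101, 77.3 and 80.1 CPM in Ofd1 CRISPR (log2 fold change 0.72, SE 0.117, adjusted p = 0.00241) and Cplx2, which clamps vesicle fusion, at 49.98 and 45.3 CPM in GFP control and 87.1, 71.7 and 63.3 CPM in Ofd1 CRISPR (log2 fold change 0.64, SE 0.116, adjusted p = 0.00408). Rims3, of the active zone, fell (log2 fold change -1.22). On the receiving side Camk2n1, an inhibitor of calmodulin kinase II, and Homer3, a scaffold of Purkinje cells, rose by 1.09 and 0.46 on the log2 scale, and the scaffolds Gphn and Shank2 fell (log2 fold changes -0.48 and -0.55). The 23 synaptic calls came to 9 or 12 with the first or the second control library dropped, and to 14 without Ofd1 CRISPR replicate 1.

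Signalling genes were called lower more often than higher, 41 against 23 of 286, and 12 fell and 8 rose. Of 24 tested G protein subunits 1 was called higher and 8 lower, and 1 and 3 of these calls held, with a median of -0.14. The inhibitory subunits Gnao1 and Gnai1 fell: Gnao1 stood at 292 and 317 CPM in GFP control and 181, 218 and 199 CPM in Ofd1 CRISPR (log2 fold change -0.61, SE 0.0837, adjusted p = 0.000914) and Gnai1 at 34.01 and 35.3 CPM in GFP control and 17.99, 20.03 and 26.1 CPM in Ofd1 CRISPR (log2 fold change -0.70, SE 0.129, adjusted p = 0.0046). Gng12 fell (log2 fold change -0.52), and the one held rise was Gnb3 (log2 fold change 1.57).

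Phosphodiesterases, which break down cyclic nucleotides, changed in opposite directions. Pde10a was at 50.7 and 50.1 CPM in GFP control and 17.5, 16.1 and 19.1 CPM in Ofd1 CRISPR (log2 fold change -1.52, SE 0.115, adjusted p = 0.000125), with both groups tight, and Pde4b fell (log2 fold change -0.94), whereas Pde2a stood at 17.1 and 15.3 CPM in GFP control and 78.5, 32.8 and 43.5 CPM in Ofd1 CRISPR (log2 fold change 1.68, SE 0.29, adjusted p = 0.00319). Calcium-binding proteins split likewise: Pvalb, parvalbumin, was at 19.1 and 13.9 CPM in GFP control and 52.1, 35.7 and 44.3 CPM in Ofd1 CRISPR (log2 fold change 1.42, SE 0.162, adjusted p = 0.000371), and Calb2, calretinin, at 19.95 and 26.8 CPM in GFP control and 3.01, 5.34 and 8.33 CPM in Ofd1 CRISPR (log2 fold change -2.07, SE 0.281, adjusted p = 0.000903). Cabp1 fell (log2 fold change -2.18). Small GTPases that rose were Diras2, at 17.4 and 14.4 CPM in GFP control and 65.7, 49.5 and 45.7 CPM in Ofd1 CRISPR (log2 fold change 1.75, SE 0.168, adjusted p = 0.000208), Rasd2 (log2 fold change 1.60), Rnd2 (log2 fold change 1.38) and Rhoj (log2 fold change 1.17); Rasl10b fell (log2 fold change -1.25), as did the exchange factor Arhgef2 (log2 fold change -0.55). Signalling calls totalled 64 (22.4%), and 25 or 27 with the first or the second control library dropped.

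Transport and modifying enzymes were called in 17.0% of 388 tested members, close to the 14.9% of all genes. The zinc transporter Slc39a11 stood at 20.6 and 18.04 CPM in GFP control and 62.7, 48.02 and 45.1 CPM in Ofd1 CRISPR (log2 fold change 1.43, SE 0.142, adjusted p = 0.000233), and the sodium-calcium exchanger Slc24a2 rose by 1.89 on the log2 scale. The nucleoside and monoamine carrier Slc29a4 fell (log2 fold change -0.66). Enzymes that sulfate or extend glycans moved apart: Chst2, a sulfotransferase, was at 45.9 and 45.6 CPM in GFP control and 151, 104 and 91.4 CPM in Ofd1 CRISPR (log2 fold change 1.34, SE 0.181, adjusted p = 0.000903), and Sulf2, which removes sulfate from heparan sulfate outside the cell, at 18.1 and 22.9 CPM in GFP control and 8.08, 9.63 and 9.46 CPM in Ofd1 CRISPR (log2 fold change -1.18, SE 0.183, adjusted p = 0.00182). B3galt2 and Mgat5b rose by 2.25 and 0.93 on the log2 scale, and Mgat3 and Galnt2 fell (log2 fold changes -0.40 and -0.44). The 66 calls came to 22 or 24 with the first or the second control library dropped, and to 42 without Ofd1 CRISPR replicate 1.

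General families had 27 calls of 372, which came to 7 with either control library dropped, 14 when Ofd1 CRISPR replicate 2 was dropped and 56 when replicate 3 was. Of 76 cytosolic ribosomal protein genes 6 were called lower (20 without Ofd1 CRISPR replicate 3) and none higher, of 99 splicing factors 3 were called, and of 36 proteasome subunits 2; none of these calls held. Tripartite motif genes had 4 of 34 called (11.8% against 14.9% of all tested genes), and 8.82% had a held call, against 3.68%. Trim66, a chromatin-reading member, had the largest held fall among genes of at least 2 CPM, at 44.9 and 65.6 CPM in GFP control and 2.91, 6.45 and 7.3 CPM in Ofd1 CRISPR (log2 fold change -3.32, SE 0.281, adjusted p = 0.000125). Trim8 fell (log2 fold change -0.63) and Trim2 rose by 0.66 on the log2 scale.

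One short sequence stood in 7.54% of the promoters of genes that fell and in 0.702% of all promoters searched. The letters TTGCATCA, on either strand (TGATGCAA on the other), are a form of the composite element that ATF4 and C/EBP factors bind. They stood between 250 bases before and 50 bases after the RefSeq start (build GRCm38.p6, matched by symbol) in 68 of 9686 tested genes with a listed promoter. Among held falls 15 of 199 promoters had them, and among held rises 1 of 158 (0.633%). Among all genes called lower the share was 2.82%, and among all called higher 0.755%. A palindromic cyclic AMP element, TGACGTCA, stood in 3.72% of all these promoters, in 2.01% of held falls and in 2.53% of held rises. The Gli site GACCACCCA, on either strand (TGGGTGGTC on the other), was found in 27 of 9686 promoters (0.279%), in 1 held rise and in no held fall. No motif contains another. These are matches of letters in a window of 300 bases, with no test; the submitters' notes name another build, mm9. The element and the genes below were looked up with the changes already known.

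The sequences show the element, in capitals, in its place upstream of 7 genes with held falls, from amino acid supply to matrix and membrane, and of Mcf2l, the gene with a held rise that has it. The printed genes are not typical of the set: most of the other held falls with the element serve amino acid supply or tRNA charging. Each sequence is written 5′ to 3′ on the gene's strand, with coordinates in GRCm38.p6.
Nupr1 (chr7:126625547-126625606, - strand): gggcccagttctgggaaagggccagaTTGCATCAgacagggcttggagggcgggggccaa
Pycr1 (chr11:120643818-120643877, - strand): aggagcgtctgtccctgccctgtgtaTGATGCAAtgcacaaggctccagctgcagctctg
Slc7a11 (chr3:50443627-50443686, - strand): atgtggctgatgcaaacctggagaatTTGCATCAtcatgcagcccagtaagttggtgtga
Fbln5 (chr12:101818575-101818634, - strand): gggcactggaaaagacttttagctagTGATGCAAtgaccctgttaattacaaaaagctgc
Frmd4b (chr6:97617796-97617855, - strand): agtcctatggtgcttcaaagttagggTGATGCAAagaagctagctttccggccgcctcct
Hax1 (chr3:89998290-89998349, - strand): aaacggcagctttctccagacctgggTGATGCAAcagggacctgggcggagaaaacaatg
Vldlr (chr19:27216794-27216853, + strand): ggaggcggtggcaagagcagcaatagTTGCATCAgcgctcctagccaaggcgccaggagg
Mcf2l (chr8:12915661-12915712, + strand): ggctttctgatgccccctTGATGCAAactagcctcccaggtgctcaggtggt

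Nupr1, a small chromatin protein of the stress response, stood at 44.8 and 55.5 CPM in GFP control and 5.72, 10.1 and 11.8 CPM in Ofd1 CRISPR (log2 fold change -2.45, SE 0.244, adjusted p = 0.000231), and Pycr1, which makes proline, at 77.2 and 79.2 CPM in GFP control and 16.9, 28.2 and 33.6 CPM in Ofd1 CRISPR (log2 fold change -1.58, SE 0.218, adjusted p = 0.000985). Slc7a11, the cystine importer, has the element on both strands within the printed stretch, once in capitals and once in lower case, and was at 2.56 and 3.21 CPM in GFP control and 0.296, 0.445 and 0.308 CPM in Ofd1 CRISPR (log2 fold change -3.03, SE 0.358, adjusted p = 0.00044). Outside amino acid supply, the reelin receptor Vldlr was at 333 and 366 CPM in GFP control and 161, 217 and 210.2 CPM in Ofd1 CRISPR (log2 fold change -0.83, SE 0.115, adjusted p = 0.000985), and Frmd4b, a membrane scaffold, at 249 and 254 CPM in GFP control and 131, 173 and 170.0 CPM in Ofd1 CRISPR (log2 fold change -0.67, SE 0.109, adjusted p = 0.00232). Hax1, a mitochondrial protein that protects from cell death, fell (log2 fold change -0.50). Mcf2l, a guanine nucleotide exchange factor, stood at 40.9 and 41.9 CPM in GFP control and 71.6, 57.6 and 55.1 CPM in Ofd1 CRISPR (log2 fold change 0.57, SE 0.105, adjusted p = 0.00453). Jdp2 has the element too. These genes other than Nupr1, Pycr1 and Fbln5 were chosen for the element after their values were seen.

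The direct contrast of the 3 Ofd1 CRISPR with the 2 Kif3a CRISPR libraries called 23 of 12875 genes (0.179%) by edgeR, 22 of them (0.171%) higher in Ofd1 CRISPR and 1 (0.00777%) lower. DESeq2 called 107. The contrast rests on Kif3a CRISPR replicate 1: with it left out edgeR called 0 genes, with 555 at an unadjusted p under 0.05, and with Kif3a CRISPR replicate 2 left out 12. None of the 205 held rises was among the 23. At an unadjusted p under 0.05 by edgeR there were 21 of the 205, against 1230 of 12875 tested genes, and DESeq2 called 1. The difference, Ofd1 CRISPR minus Kif3a CRISPR, was positive in 73 of the 205, with a median of -0.05 on the log2 scale. Of the 269 held falls 16 were among the 23, each with a higher level in Ofd1 CRISPR than in Kif3a CRISPR. At an unadjusted p under 0.05 there were 80 of the 269, and DESeq2 called 40, all of them higher in Ofd1 CRISPR. The difference was positive in 232 of the 269, with a median of 0.16 on the log2 scale, against 6407 of 12875 tested genes. The peptide hormone gene Apln was one, at 2.38 and 3.13 CPM in Kif3a CRISPR against 7.59, 7.18 and 9 CPM in Ofd1 CRISPR (log2 difference 1.54, SE 0.181, adjusted p = 0.00426). The others include the glucose transporters Slc2a1 and Slc2a3, the lactate carrier Slc16a3 and the oxygen sensors Egln1 and Egln3, which were named after their values were seen. The one gene lower in Ofd1 CRISPR was Ofd1, at 20.99, 20.03 and 22.00 CPM against 31.7 and 29.0 CPM (log2 difference -0.53, SE 0.0887, adjusted p = 0.0399). For the guidance genes, channels, Sox and bZIP factors named above a difference between the guides was not detected, which does not show that they are alike.

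**Figure D5:**
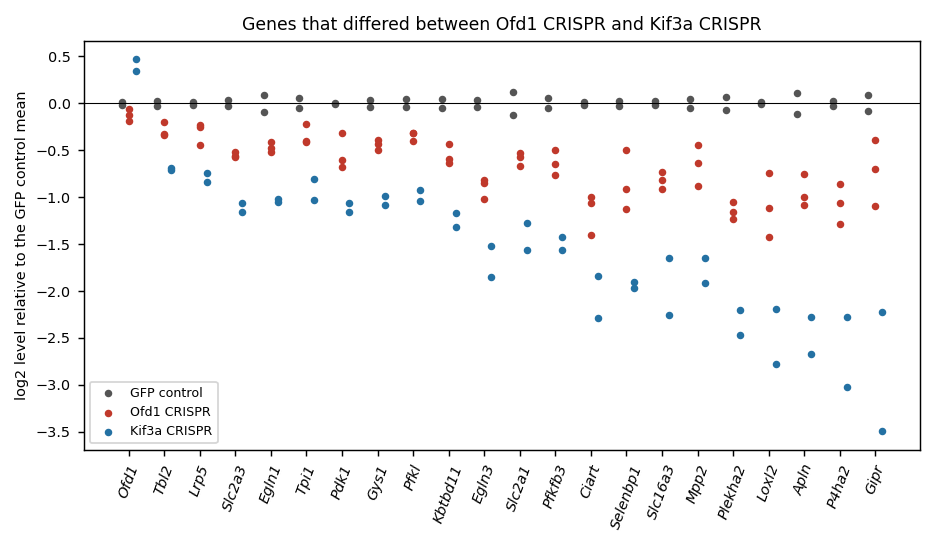
Log2 level of 22 of the 23 genes called in the direct contrast, in each library relative to the GFP control mean of the gene; grey is GFP control, red Ofd1 CRISPR and blue Kif3a CRISPR. In 21 genes the red points lie between the grey and the blue points, and in Ofd1 the blue points lie above the rest.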

How the data were processed

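Stranded poly-A libraries were read on 1 sequencer run, per the labels' protocols. The deposited table holds whole-number read counts per gene symbol, with no normalization by the authors. Per the submitters' processing notes, STAR, DESeq2 and mm9 were used, with neither versions nor roles. Which counter, annotation and strand setting made the counts is not given in the sources used here. Genes with near-identical copies may therefore be split or lost.

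Of 24047 genes, 6795 had no count and 12875 passed edgeR's filterByExpr. edgeR 4.0.16 in R 4.3.3 (quasi-likelihood F test, TMM factors) was fitted with a mean per guide to all 7 libraries, with 4 residual degrees of freedom and a common biological coefficient of variation of 7.43%. All adjusted p-values are Benjamini-Hochberg values over all tested genes from edgeR unless DESeq2 1.42.0 is named. SE was derived from the F statistic. The script was tested on simulated data. In the 5 libraries compared, 3 counts correspond to 0.147 to 0.167 CPM, a limit that covers counting error only.

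Named genes were the 30 largest held rises and the 30 largest held falls with a mean of at least 2 CPM and no overlap of groups, up to 4 held calls per family and direction by smallest adjusted p, the member of each family with the highest mean count, Ofd1, Kif3a and Ptch1, and the cell type markers. The families, marker lists and motifs were chosen with earlier results of these data known. Alternatives were a contrast's own libraries alone, RLE factors, library totals, no filter, a minimum mean of 1 CPM, a replicate block, DESeq2 and leaving out each library. A few genes are not reported here.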

Additional observations from a re-analysis of the deposited data

How the results depend on the processing

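Against 874 higher and 1041 lower genes, leaving out 1 library at a time gave 270 to 1321 higher and 378 to 1510 lower. The lowest numbers came without GFP control replicate 2 for rises and without GFP control replicate 1 for falls, and the highest without Ofd1 CRISPR replicate 3; with 1 control left, the lone library is assumed to vary like the other groups. The replicate block gave 1620 higher and 1876 lower. Deviations from the group means of same-numbered libraries correlated at 0.199 and 0.190 between Ofd1 CRISPR and GFP control and at 0.234 and 0.152 between Ofd1 CRISPR and Kif3a CRISPR. Between GFP control and Kif3a CRISPR the correlation was -0.009. It is the same for both numbers by construction, because deviations in a group of 2 libraries mirror each other. No shared origin of equal numbers is stated and only 2 numbers are shared, so the numbers were not taken as pairs. With library totals alone 1154 genes were higher and 852 lower, so 57.5% of calls were rises against 45.6%, and the median of all genes moved by 0.0371 on the log2 scale. Of the 474 held calls, 470 were called with a minimum of 1 CPM, which tests fewer genes, 471 by DESeq2, and all under the other alternatives without a library left out. The contrast with Kif3a CRISPR, 23 genes, gave 80 without the count filter, 191 with the replicate block, 107 by DESeq2, and 0 to 50 with a library left out. The cause of these shifts was not tested. The fold changes of Cd74 and Lgals3 turned from -4.35 and -3.28 to 2.14 and 0.33 without GFP control replicate 1. Their ranges over leave-one-out fits were -5.56 to 2.14 and -4.22 to 0.33. Without that library Cd74 stood at 0.15 CPM in GFP control and at 1.43, 0.0556 and 0.514 CPM in Ofd1 CRISPR. Near 0.167 CPM, differences were not detectable at this depth.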

Other observations

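The following groups of genes were written down after their values had been seen, so their counts are descriptions without a test; over all tested genes 14.9% were called and 3.68% held. Of 26 tested imprinted genes, which are expressed from 1 parental copy, 7 were called higher and 3 lower (38.5%), and 4 of the rises held (15.4%). Peg13, a noncoding RNA, stood at 15.2 and 17.04 CPM in GFP control and 60.6, 47.6 and 40.9 CPM in Ofd1 CRISPR (log2 fold change 1.63). Peg3 stood at 101 and 98.8 CPM in GFP control and 184, 160.0 and 141 CPM in Ofd1 CRISPR (log2 fold change 0.70), and Peg10 and Plagl1 rose by 0.61 and 0.60 on the log2 scale. The groups overlapped in none of these 4 genes. The list's 10 calls came to 4 when GFP control replicate 1 was dropped and to 5 when GFP control replicate 2 or Ofd1 CRISPR replicate 1 was.

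Of 26 tested genes known from the sensory hair bundle or hair cells, 10 were called higher and 5 lower (57.7%), and 6 rises and 1 fall held (26.9%). Besides Cdh23, Pvalb, Barhl1, Atoh1 and Calb2, these were Tprn, which encodes the stereocilia base protein taperin, at 89.2 and 90.05 CPM in GFP control and 249, 165 and 161 CPM in Ofd1 CRISPR (log2 fold change 1.10), and Atp2b2, a plasma membrane calcium pump, at 89.7 and 80.5 CPM in GFP control and 193, 147 and 128 CPM in Ofd1 CRISPR (log2 fold change 0.87). Barhl1 and Atoh1 are also granule lineage genes. Not every bundle gene moved this way: Espn, an actin bundler, was called lower at 1.38 and 1.35 CPM in GFP control and 0.345, 0.556 and 0.463 CPM in Ofd1 CRISPR, but that call did not hold. Whrn, Eps8 and Eps8l2 were also called lower (log2 fold changes -0.31, -0.63 and -0.51), and none of these calls held. The 15 calls came to 8 or 7 with the first or the second control library dropped.

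In a list of 9 tested genes, mainly plasma membrane calcium pumps and Orai channels, 4 were called higher and 1 lower (55.6%), and 3 rises held (33.3%). The 5 called genes are such pumps and channels, but the list can hold genes of another kind. Atp2b4 stood at 19.2 and 17.9 CPM in GFP control and 52.5, 43.1 and 37.8 CPM in Ofd1 CRISPR (log2 fold change 1.26), and the channel Orai2 at 17.6 and 16.9 CPM in GFP control and 42.7, 26.99 and 29.2 CPM in Ofd1 CRISPR (log2 fold change 0.94). Atp2b1, the pump with the highest level of these in the control libraries, was called lower at 134 and 145 CPM in GFP control and 102, 117 and 115 CPM in Ofd1 CRISPR, a call that did not hold. The 5 calls came to 3 with either control library dropped.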
